A study of Mus musculus with 162 samples.

Results

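Subcutaneous white fat (psWAT) late in a fast was compared with the same depot around the start of the fast. The late libraries are those of 18 h and 22 h without food (5 libraries) and the early libraries those of 0 h and 2 h (6 libraries), chosen by the organ and fasting time of their labels. They make up 11 of the 18 psWAT libraries and 11 of the 162 libraries in all. The 22 h replicate 2 library was left out because the study excluded it, and the 8 h and 12 h libraries belong to neither arm.

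All mice were C57BL/6J males of 8 to 9 weeks, housed in groups under 12 h of light and 12 h of darkness, untreated apart from the removal of food. The 0 h mice were fed ad libitum, 3 mice were taken at each of the fasting times, and each mouse gave 9 organs, so a library is 1 depot of 1 animal. RNA of the whole depot piece was sequenced, which includes any lymph node, muscle or epithelium dissected with the fat. The 11 libraries held between 4099281 and 9802381 gene counts. Counts were 6880700, 7254025 and 7591246 at 0 h, 7063548, 8724214 and 8030560 at 2 h, 9394070, 9802381 and 6821809 at 18 h, and 5652007 and 4099281 at 22 h (replicates 1 and 3).

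White fat stores triglyceride when glucose and insulin are plentiful and releases fatty acids when they are not. Feeding drives the enzymes of fatty acid and cholesterol synthesis through SREBP and ChREBP, whereas fasting lowers insulin and favours lipolysis. The subcutaneous inguinal pad also surrounds a lymph node, lies on skeletal muscle and under skin, so its lymphocytes, muscle fibres and epithelium can be taken with it.

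The label was checked against Lep, which encodes the satiety hormone leptin (GRCm38 chr6:29060220-29073877), and Adipoq, which encodes adiponectin (chr16:23146536-23158028). Levels below are CPM with TMM scaling, called normalised CPM. Adipoq was 2540, 1695 and 122.7 at 0 h, 146.9, 58.1 and 80.8 at 2 h, 389, 918 and 1347 at 18 h, and 35.03 and 1011 at 22 h. Lep was 711, 453 and 37.5 at 0 h, 20.7, 28.9 and 6.31 at 2 h, 113.8, 62.4 and 158 at 18 h, and 4.76 and 261 at 22 h. Both markers were present in every library, but 0 h replicate 3, the 3 libraries of 2 h and 22 h replicate 1 were low in both. The early and late arms overlapped for both genes. The log2 fold change of late over early was -0.80 ± 1.18 (SE) for Lep and -0.06 ± 1.09 for Adipoq, with an adjusted p of 1.00 for each in edgeR's quasi-likelihood test. In bulk tissue, fewer cells of a type and less RNA per cell cannot be told apart.

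Adipocyte and B lymphocyte genes varied widely within both arms. The 15 adipocyte identity genes together were at 63040, 45802 and 3913 normalised CPM at 0 h, 5559, 4682 and 2784 at 2 h, 9147, 21455 and 39196 at 18 h, and 1340 and 39748 at 22 h. The 16 B lymphocyte genes in the table of 17 listed summed to 3291, 5476 and 10053 at 0 h, 7989, 6919 and 8926 at 2 h, 8461, 5501 and 3201 at 18 h, and 9658 and 2151 at 22 h. The 5 libraries with the highest adipocyte sums were the 5 with the lowest B lymphocyte sums, and the other 6 came from 0 h, 2 h, 18 h and 22 h. Ighm, the heavy chain of IgM, was the most abundant B lymphocyte gene with a mean of 1606, and no gene of that list was at 0 in all 11 libraries. Cd79a, part of the B cell receptor, was 560 in 0 h replicate 3 and 582 in 22 h replicate 1, against 147.2 in 0 h replicate 1 and 114.4 in 22 h replicate 3. The first principal component held 46.6% of the variance and separated 0 h replicates 1 and 2, 18 h replicate 3 and 22 h replicate 3 from the remaining 7 libraries.

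Other lymph node genes varied too, and 18 h replicate 2 had a high sum of stroma genes (1351) together with a high adipocyte sum. T lymphocyte genes (17 of 17 measured) summed to 1269, 2339 and 2235 at 0 h, 3340, 2502 and 2705 at 2 h, 2201, 1850 and 1822 at 18 h, and 3188 and 1874 at 22 h, with Lck, a kinase of T cell receptor signalling, the most abundant. Genes of lymph node stroma and vessels (11 of 12) were at 698, 790 and 1420 at 0 h, 1032, 843 and 1326 at 2 h, 1156, 1351 and 290 at 18 h, and 910 and 422 at 22 h. Glycam1, a ligand of L-selectin on the vessels through which lymphocytes enter a node, was 317 in 0 h replicate 3 and 363 in 18 h replicate 2 but 11.6 in 18 h replicate 3. MHC class II genes (9 of 9), led by Cd74, ran from 2914 in 22 h replicate 3 to 11589 in 2 h replicate 3. None of the members of these 4 immune lists passed the test between late and early, and their median log2 fold changes were -0.38 for B lymphocytes, -0.23 for T lymphocytes, -0.15 for lymph node stroma and vessels and -0.22 for MHC class II, beside a median of -0.00 over all genes tested.

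**Figure D1:**
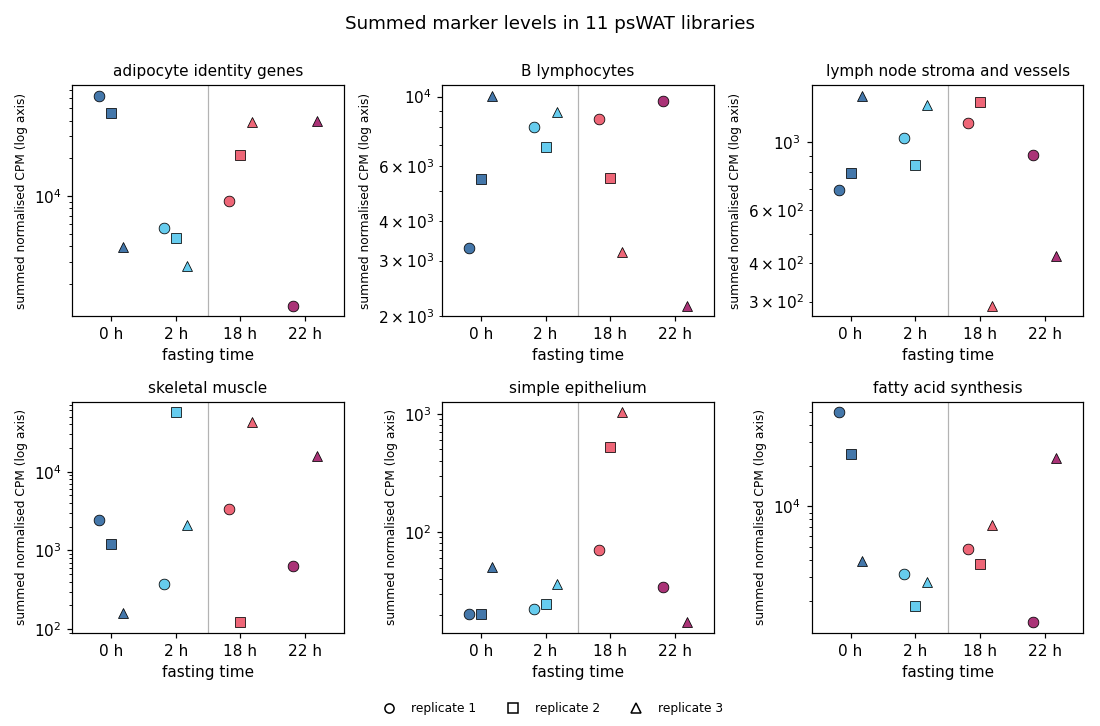
Summed normalised CPM (log axis) of 6 gene lists in each of the 11 psWAT libraries, by fasting time in hours, with the marker shape giving the replicate and the grey line separating early from late. The 5 libraries highest in adipocyte genes are the 5 lowest in B lymphocyte genes, and the simple epithelium sum is by far highest in 18 h replicates 2 and 3 (527 and 1030).

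Muscle and epithelium each stood apart in particular libraries. The 21 skeletal muscle genes summed to 56824 in 2 h replicate 2, 42907 in 18 h replicate 3 and 15926 in 22 h replicate 3, and lay between 121.9 and 3323 in the other 8 libraries. Acta1, skeletal alpha-actin, was their most abundant gene, at 7792 in 2 h replicate 2 and 2.71 in 0 h replicate 3. The 14 simple epithelium genes summed to 527 and 1030 in 18 h replicates 2 and 3, and to between 17.2 and 70.5 in the other 9 libraries. Their member Ltf is also in the list of neutrophil genes. It was 50.5 in 18 h replicate 1, the library with the sum of 70.5, and 34.3 and 61.6 in 18 h replicates 2 and 3. Results without the epithelium-rich libraries, without the muscle-rich ones and without 22 h replicate 1, which had the lowest adipocyte sum, are given below.

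Sequencing lane was uneven as well. In the early arm 1 of 6 libraries was run on lane 7 and the others on lane 5, whereas 2 of the 5 late libraries were on lane 7. The 3 libraries of lane 7 (0 h replicate 1, 18 h replicate 3 and 22 h replicate 3) had adipocyte sums of 63040, 39196 and 39748, and those of lane 5 ranged from 1340 to 45802. Mitochondrial transcripts took 12.4% and 8.14% of the counts in 0 h replicates 1 and 2 and between 1.14% and 5.18% in the other 9.

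No gene passed the thresholds (adjusted p under 0.05 and an absolute log2 fold change over 1) between late and early psWAT in edgeR's quasi-likelihood test, that is 0 of 16159 genes or 0%. The smallest adjusted p in edgeR was 0.999569. At an unadjusted p under 0.05 there were 587 genes (3.63%), 332 of them higher (2.05%) and 255 lower (1.58%) in the late fast. The balance of the directions differed between fits, with 221 higher and 317 lower when sequencing lane was a covariate and 342 higher and 611 lower when the summed B lymphocyte level was, the latter added once the values were known. DESeq2 called 12 genes higher and 0 lower, and limma voom with quality weights called 0 in either direction with 2429 genes at an unadjusted p under 0.05. The comparison had 6 against 5 libraries and a biological coefficient of variation of 0.516, and the size of change it could resolve is not given here.

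Krt14 had the smallest p on the higher side, followed by Prom1, Tead2, Bicd1 and Krt18, and none passed the adjusted threshold in edgeR. Of the 12 genes with the smallest p on that side, 4 belong to the epithelial lists (Krt14, Krt18, Wfdc18 and Dsp). Of the same 12 genes, Krt14, Krt18, Wfdc18, Dsp, Wwc1, Ptn, Clic6 and Tmem125 were highest in 18 h replicates 3 and 2. Krt18, a keratin of simple epithelia (chr15:102028180-102032027), was 110 and 200 in 18 h replicates 2 and 3, 0.274 in 18 h replicate 1, 1.70 and 0.873 at 22 h, and at most 1.81 in the early libraries. Its log2 fold change was 7.19 ± 1.70 with an adjusted p of 1.00 in edgeR and 0.0131 in DESeq2. Only 18 h replicates 2 and 3 lay above the early range.

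Krt14, the keratin of basal epithelial cells (chr11:100203162-100207548), was 0, 16.9 and 34.01 at 18 h, 1.19 and 3.49 at 22 h, and at most 0.16 in the early libraries (log2 fold change 7.09 ± 1.45, unadjusted p 0.000378, the smallest of all genes). Ptn, which encodes the secreted growth factor pleiotrophin, was 3.48, 192.2 and 321 at 18 h, 4.76 and 24.5 at 22 h, and between 2.26 and 9.29 in the early libraries (4.43 ± 1.07). For Wfdc18, a secreted protein of mammary epithelium, the 18 h values were 0.274, 13.1 and 61.3 and the others at most 1.36 (5.12 ± 1.27). For these 3 genes 18 h replicate 1 was within the early range, and 18 h replicates 2 and 3 were the highest of the 11. The same held for Dsp (desmoplakin, of cell junctions), with 0, 15.0 and 22.5 at 18 h and a log2 fold change of 5.22 ± 1.34, and for Clic6 (6.29 ± 1.63), Wwc1 (4.18 ± 0.99) and Tmem125 (5.30 ± 1.39), of which Tmem125 had 54 counts in all.

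As a list, 10 of the 14 simple epithelium genes were tested, 8 of them were higher at an unadjusted p under 0.05 (2.05% of all genes were), and their median log2 fold change was 4.42. Members could pass the filter on low counts through the libraries in which they were high, so the count is given as a description only. Without the filter 12 of 14 were higher at that threshold, beside 863 of all 28056 genes in that fit. Krt18 was the most abundant member on average (28.7), Epcam, an adhesion molecule of epithelia chosen after its values were seen, was 54.998 and 98.4 in 18 h replicates 2 and 3 and between 2.91 and 8.91 elsewhere, and no member was at 0 in all 11 libraries. Among the 21 genes of epidermal and follicular keratinocytes, 9 were tested and 4 were higher at an unadjusted p under 0.05, which is likewise a description only, since members such as Krt14 and Dsp reached the filter through late libraries alone. Of the 9 tested, 6 had a positive and 3 a negative log2 fold change, from -0.76 to 7.09 with a median of 1.35. Without the filter 7 of 19 were higher at that threshold, again beside 863 of all 28056 genes. The 4 became 1 of 6 without 18 h replicate 2, 18 h replicate 3 or 22 h replicate 3. Flg and Krt25, of cornified or follicular skin, were the only 2 of the 21 members at 0 in all 11 libraries. The basal keratin Krt5, chosen after its values were seen, was 13.9 and 17.7 in 18 h replicates 2 and 3 and at most 0.48 elsewhere. Ly6d, the most abundant gene of that list, which lymphocytes also express, was between 92.6 and 265.

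With both epithelium-rich 18 h libraries left out, 0 of 5 tested simple epithelium genes were higher at an unadjusted p under 0.05. Of all 15795 genes 308 were. The median log2 fold change of the list was 0.01, and edgeR again called 0 genes (479 at an unadjusted p under 0.05). This alternative was added once the values were known. Without 18 h replicate 2 or without 18 h replicate 3 alone, 5 members were higher at that threshold. At 22 h alone against early the number was 0 of 4, beside 1143 of all 15575 genes. For the keratinocyte genes it was 0 of 6 in both of these comparisons, without the 2 libraries and at 22 h alone. With the 2 libraries richest in muscle (2 h replicate 2 and 18 h replicate 3) left out, also added once the values were known, edgeR called 0 genes with 318 at an unadjusted p under 0.05. Without 22 h replicate 3, the next richest, it called 0 with 404, and without 22 h replicate 1 it called 0 with 730.

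**Figure D2:**
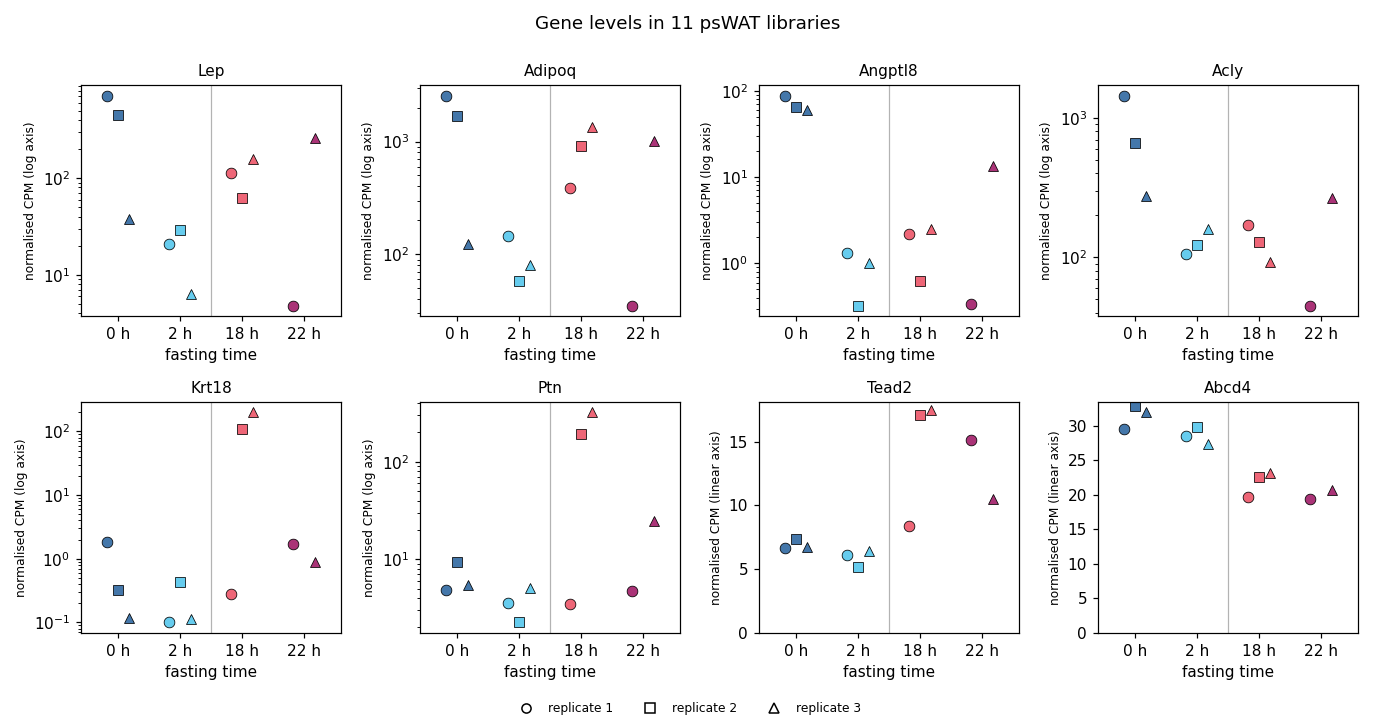
Normalised CPM of 8 genes in each of the 11 psWAT libraries by fasting time, on log axes (values below 0.1 drawn at 0.1) except for Tead2 and Abcd4, which have linear axes from 0. Krt18 and Ptn are far above the rest only in 18 h replicates 2 and 3, whereas all 5 late libraries lie above the early ones for Tead2 (lowest late value 8.41, highest early value 7.37) and below them for Abcd4 (23.1 and 27.4).

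The remaining higher genes in the ranking were spread over more of the late libraries. Tead2, a transcription factor of the Hippo pathway (chr7:45215753-45233644), was 8.41, 17.1 and 17.5 at 18 h, 15.1 and 10.5 at 22 h, and 5.16 to 7.37 with a median of 6.55 in the early libraries. Its log2 fold change was 1.10 ± 0.24, with an adjusted p of 1.00 in edgeR and 0.034 in DESeq2. The arms did not overlap.

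Bicd1, an adaptor of dynein transport, was 2.19, 3.33 and 3.96 at 18 h, 3.40 and 3.49 at 22 h, and 0.676 to 1.60 in the early libraries (1.59 ± 0.36), again without overlap. Prom1 (prominin 1, a membrane protein of epithelial and progenitor cells) was 1.92, 5.30 and 4.62 at 18 h, 0.850 and 6.11 at 22 h, and at most 1.08 early, with 1 late library inside the early range (2.41 ± 0.53). Gata3, a transcription factor of T cells and of several epithelia, was 8.69, 30.0 and 47.4 at 18 h, 33.2 and 36.4 at 22 h, and 10.7 to 16.6 early, with 18 h replicate 1 below the early range (1.31 ± 0.34). Of the 12 genes 2 did not overlap between the arms, beside 64 of all 16159 genes tested (0.396%), 20 with every late library higher (0.124%) and 44 with every late library lower (0.272%).

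On the lower side, the 12 genes with the smallest p had log2 fold changes between -0.89 and -0.42. Abcd4, a transporter needed to release cobalamin from lysosomes (chr12:84601464-84617413), was 19.8, 22.6 and 23.1 at 18 h, 19.4 and 20.7 at 22 h, and 27.4 to 32.8 with a median of 29.7 in the early libraries. Its log2 fold change was -0.51 ± 0.13 (unadjusted p 0.00208, adjusted p 1.00 in edgeR). All 5 late libraries were below all 6 early ones.

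Prmt5, an arginine methyltransferase, was 40.7, 41.8 and 45.1 at 18 h, 37.1 and 35.8 at 22 h, and 48.6 to 60.99 early (-0.43 ± 0.13). Adsl, an enzyme of purine synthesis, was 45.2, 41.97 and 39.96 at 18 h, 30.1 and 21.5 at 22 h, and 49.8 to 72.7 early (-0.68 ± 0.21). Szrd1 (-0.42 ± 0.13), the ubiquitin ligase Dtx2 (-0.51 ± 0.14) and Bloc1s2-ps (-0.74 ± 0.20) also had no overlap. That makes 6 of these 12 genes, which were chosen by their p, beside 44 of all 16159 genes (0.272%) with every late library lower. The deubiquitinase Josd2 (-0.55 ± 0.15) overlapped only where 0 h replicate 1, at 30.7, lay below 22 h replicates 1 and 3, at 31.97 and 30.9. The other 5 were Rpl36-ps2 (-0.72 ± 0.20), Supt4b (-0.73 ± 0.21), Gm10709 (-0.64 ± 0.19), Gm11539 (-0.89 ± 0.27) and AC154767.3 (-0.89 ± 0.28). Bloc1s2-ps, Rpl36-ps2, Supt4b, Gm10709 and Gm11539 are annotated as processed pseudogenes, whose reads can be shared with their parent genes, so their values are uncertain.

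The summed level of fatty acid synthesis genes had a higher mean early (14352 early, 8035 late) but a higher median late (3560 early, 4867 late). The 18 genes summed to 49899, 24522 and 3966 at 0 h, 3153, 1831 and 2741 at 2 h, 4867, 3764 and 7288 at 18 h, and 1381 and 22872 at 22 h. All 3 libraries of 2 h were below all 3 of 18 h. All 18 were tested, 1 was lower at an unadjusted p under 0.05 (1.58% of all genes were), 16 had a negative log2 fold change, and the median was -0.72. The 1 became 0 without 0 h replicate 1 or 2, without any 1 of the 18 h libraries or without 22 h replicate 1, 2 without 2 h replicate 1 or 2, and 3 without 22 h replicate 3. Acly, which makes cytosolic acetyl-CoA from citrate, was 1443, 659 and 273 at 0 h, 105.7, 123.03 and 158.4 at 2 h, 171.4, 128.1 and 92.1 at 18 h, and 44.7 and 267 at 22 h (-1.71 ± 0.74, unadjusted p 0.0392). Scd2, a stearoyl-CoA desaturase, ranged from 121.8 to 401 early and from 117.1 to 178 late (-0.58 ± 0.31).

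The direction of this list differed with the early libraries used and with the test. Its median was 0.19 in limma voom with the same 11 libraries, -1.43 against 0 h alone and 1.43 against 2 h alone, and 0.01 without 0 h replicate 1. The adipocyte identity genes had medians of -0.79 against 0 h alone and 2.17 against 2 h alone, so they turned in the same way. In a fit adjusted for the summed B lymphocyte level, a choice made once the values were known, 11 of the 18 were lower at an unadjusted p under 0.05 with a median of -1.22, beside 611 of all genes (3.78%), and with the adipocyte identity sum as the covariate 3 were lower with a median of -0.57, beside 505 of all genes (3.13%). With sequencing lane as a covariate the median was -1.23, and that of the adipocyte identity genes was -0.45. The fits with the B lymphocyte and the adipocyte sum called no gene (smallest adjusted p 0.821 and 0.817 in edgeR). In them 953 and 965 genes had an unadjusted p under 0.05. The fit with lane also called 0 (smallest adjusted p 0.967 in edgeR), with 538 genes at that threshold.

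Cholesterol synthesis showed a narrower spread. Its 22 genes summed to 2040, 1595 and 686 at 0 h, 581, 542 and 602 at 2 h, 659, 597 and 625 at 18 h, and 618 and 1184 at 22 h. Of 20 tested, 3 were lower at an unadjusted p under 0.05 (1.58% of all genes were) and 19 had a negative log2 fold change, with a median of -0.46. The 3 became 1 without 0 h replicate 1 or 2, 18 h replicate 2 or 3, or 22 h replicate 1, and 0 on lane 5 only, and the median was -0.24 without 0 h replicate 1 and -0.11 in limma voom. Sqle, which encodes squalene epoxidase (chr15:59315077-59331192), was 10.1, 10.2 and 6.11 at 18 h, 10.5 and 7.28 at 22 h, and 10.3 to 31.6 with a median of 15.0 in the early libraries (-0.97 ± 0.30, unadjusted p 0.00758). The arms touched only between 22 h replicate 1 and 2 h replicate 2. The median of the list was -0.86 against 0 h alone and 0.06 against 2 h alone.

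Angptl8, a feeding-induced inhibitor of lipoprotein lipase (chr9:21835510-21837347), separated the 0 h mice from all others. It was 87.4, 65.2 and 60.1 at 0 h, 1.32, 0.322 and 1.01 at 2 h, 2.19, 0.629 and 2.48 at 18 h, and 0.340 and 13.4 at 22 h. All 8 libraries of fasted mice were below all 3 of 0 h. Pooled into the early arm this gave a log2 fold change of -3.35 ± 1.44 (unadjusted p 0.0395), which was 2.04 against 2 h alone. Of the 13 genes of fat uptake 2 were lower at an unadjusted p under 0.05, Angptl8 among them (1.58% of all genes were), and the list median was 0.18. The 2 became 1 without 0 h replicate 3 or 18 h replicate 1, and 0 without 0 h replicate 1 or 2, 18 h replicate 2 or 3, or 22 h replicate 1.

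To set adipocyte genes against adipocyte RNA within each library, counts were also taken per 100 Adipoq counts, for genes chosen after their values were seen. Lep was 27.99, 26.7 and 30.5 per 100 Adipoq counts at 0 h, 14.1, 49.7 and 7.81 at 2 h, 29.3, 6.80 and 11.7 at 18 h, and 13.6 and 25.8 at 22 h. The difference of late and early was -0.56 on the log2 scale (early -2.16 ± 0.94 SD, n = 6, late -2.72 ± 0.86 SD, n = 5), with p = 0.327 in a two-sided exact permutation test over 462 splits, whose smallest possible p is 0.00433. The 3 libraries of 0 h lay within 26.7 to 30.5 on this scale, whereas their Lep levels ran from 37.5 to 711. Angptl8, close to even across 0 h in normalised CPM, was uneven on this scale, at 3.44 and 3.85 in 0 h replicates 1 and 2 and 48.99 in 0 h replicate 3.

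Pck1, the enzyme of glyceroneogenesis, was 54.6, 50.3 and 51.5 per 100 Adipoq counts at 0 h, 128.3, 124.4 and 140.9 at 2 h, 64.6, 89.4 and 91.8 at 18 h, and 119.4 and 194 at 22 h. All 8 libraries of fasted mice lay above the 3 fed ones on this scale. In normalised CPM, Pck1 was lower at 2 h than at 0 h, though less so than Adipoq. The log2 fold changes were -2.62 ± 1.29 for Pck1 and -3.93 ± 1.27 for Adipoq in edgeR. Fasn, the fatty acid synthase, was 256, 200 and 611 per 100 Adipoq counts at 0 h, 187.1, 254 and 344 at 2 h, 144.9, 40.8 and 65.1 at 18 h, and 217 and 262 at 22 h. Scd1, a desaturase of saturated fatty acids, was between 770 and 1672 early, 708, 181 and 256 at 18 h, and 1551 and 1380 at 22 h. For Fasn and Scd1 the 18 h libraries were below all others and the 22 h libraries were not. Acly did not follow this pattern, with 44.1, 14.0 and 6.84 at 18 h, 38.9 in 0 h replicate 2 and 26.4 in 22 h replicate 3. These ratios assume that lymphocytes add little of either transcript, which was not tested.

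**Figure D3:**
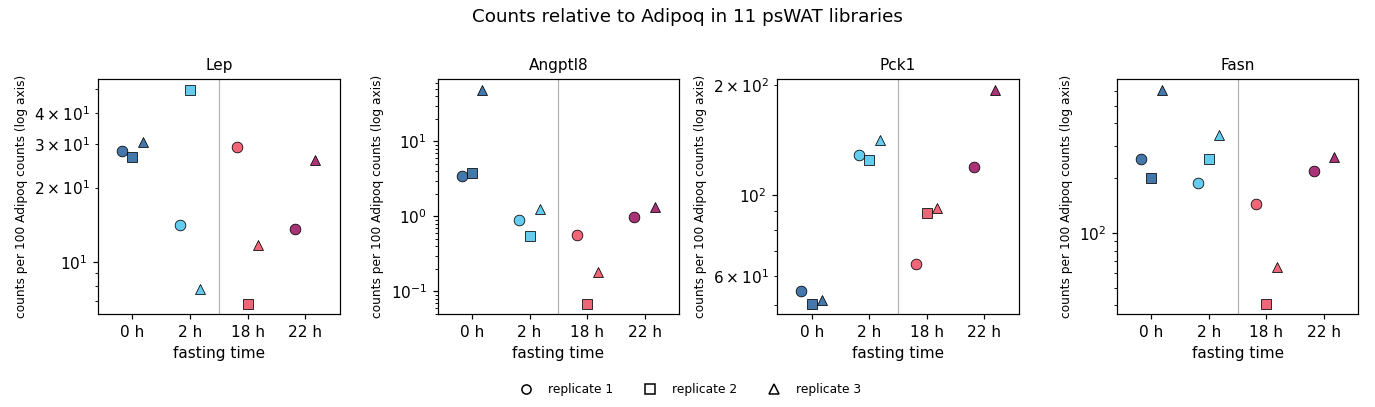
Counts per 100 Adipoq counts (log axis) of Lep, Angptl8, Pck1 and Fasn in each of the 11 psWAT libraries by fasting time. Pck1 is lowest in the 3 libraries of 0 h (50.3 to 54.6), and Fasn is lowest in the 3 libraries of 18 h (40.8 to 144.9).

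The other metabolic lists had median log2 fold changes between -0.27 and 0.10 in edgeR, beside -0.00 over all genes tested. Under limma voom, however, the adipocyte identity genes had a median of 1.62 with 6 of 15 higher at an unadjusted p under 0.05, beside 1367 of all genes (8.46%). In edgeR the medians were 0.02 for adipocyte identity genes, -0.07 for adipokines, -0.27 for triglyceride synthesis, 0.06 for lipolysis and lipid droplet genes, 0.01 for fatty acid oxidation, -0.00 for glyceroneogenesis and pyruvate, -0.14 for glucose uptake and glycogen and 0.10 for receptors of adrenergic and related hormones. Between 0 and 1 member of each had an unadjusted p under 0.05. Acot1, an acyl-CoA thioesterase of the PPARα programme, was 0 to 2.89 early and 0.340 to 18.5 late (2.25 ± 1.03). Ppp1r3b, a glycogen-targeting subunit of protein phosphatase 1, was 4.41 to 421 early and 2.38 to 159.8 late (-1.67 ± 1.38), and Apln, the adipokine apelin, was 2.03 to 15.2 early and 0.165 to 4.95 late (-1.29 ± 0.73). Adra2a, an adrenergic receptor that inhibits lipolysis, was 1.44 to 9.43 early and 4.48 to 17.2 late (0.98 ± 0.45). The arms overlapped for all 4 genes. The thermogenic list had a median of -0.02. Its Ucp1, the uncoupling protein of brown and beige adipocytes, was 816, 510 and 0.589 at 0 h, at most 1.01 at 2 h, 3.11, 6.38 and 52.2 at 18 h, and 1.87 and 137.4 at 22 h, with a log2 fold change of -2.47 ± 1.99. Ckmt1, a mitochondrial creatine kinase, was 0 to 1.60 early, 0, 3.06 and 4.79 at 18 h, and 0.170 and 11.6 at 22 h (3.52 ± 1.38).

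Signalling and stress lists had medians between -0.11 and 0.23. Among 18 genes of insulin signalling, Sesn1, a stress-inducible inhibitor of mTORC1 and FoxO target, was 67.7 to 127 early and 110.5 to 167.2 late (0.55 ± 0.19, unadjusted p 0.0142), and the median was 0.11. Of 16 glucocorticoid-response genes, 13 had a positive log2 fold change with a median of 0.23. Errfi1, a feedback inhibitor of EGF receptors, was 21.04, 75.8 and 85.7 at 18 h, 27.4 and 78.9 at 22 h, and 19.2 to 34.3 early (1.10 ± 0.37), and Lcn2, lipocalin 2, was 38.1, 41.5 and 85.2 at 18 h but 1.36 and 0.291 at 22 h (2.58 ± 1.15). Lcn2 was above the early range, 0.641 to 14.5, in all 3 libraries of 18 h and in neither of 22 h. Of these 3, replicate 1 had the highest neutrophil sum (798) and replicates 2 and 3 the highest simple epithelium sums (527 and 1030), and the part of those cells in its level was not tested. The neutrophil and simple epithelium lists share Ltf. ER chaperones had a median of -0.11, and 2 members were lower at an unadjusted p under 0.05 (1.58% of all genes were), Calr, calreticulin (290 to 510 early, 187.5 to 328 late, -0.65 ± 0.21), and Hspa5, the chaperone BiP (286 to 570 early, 228 to 372 late, -0.55 ± 0.22). The 2 became 1 without 0 h replicate 3, 2 h replicate 3 or either 22 h library.

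Clock genes had a median of 0.12, the ATF4 response -0.11, autophagy and lysosome 0.07, interferon-stimulated genes 0.10, cell cycle -0.02, immediate early genes -0.12, cytosolic ribosomal proteins 0.10, nuclear oxidative phosphorylation -0.09 and mitochondrially encoded genes -0.55. In these 9 lists at most 1 member had an unadjusted p under 0.05. Atp6v0d2, a subunit of the lysosomal proton pump, was 19.6 in 18 h replicate 3 and at most 3.38 elsewhere (2.65 ± 1.02), and Rps2, a ribosomal protein, was 84.1 to 134.04 early and 50.1 to 101.5 late (-0.43 ± 0.20). The mitochondrial sum ran from 149444 normalised CPM in 0 h replicate 1 to 9952 in 22 h replicate 1.

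Collagen and matrix genes (27) had a median of 0.26, with 3 higher at an unadjusted p under 0.05 (2.05% of all genes were). Without 18 h replicate 3 the number was 0 and the median -0.09. Postn, which encodes periostin, was 109.7, 420 and 654 at 18 h, 41.9997 and 151.7 at 22 h, and 49.4 to 165.2 early (1.72 ± 0.61), and Col14a1 was 14.6, 27.2 and 39.96 at 18 h, 18.2 and 33.8 at 22 h, and 13.0 to 19.7 early (0.70 ± 0.26). Their 2 highest 18 h values were those of the epithelium-rich libraries, and the part of that tissue in the values was not tested. Cnn1, calponin of smooth muscle and myoepithelium, was highest in these 2 libraries, with 27.9 and 46.4, 6.40 in 22 h replicate 3 and at most 3.30 elsewhere (3.67 ± 1.12). So was Sox10, a transcription factor of Schwann cells and of mammary epithelium, with 11.8 and 14.2 against at most 4.37 elsewhere (2.44 ± 0.77).

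Of the macrophage genes, 2 were far highest in 1 library. Gpnmb, a lysosomal glycoprotein of lipid-laden macrophages, was 122.01 in 18 h replicate 3, 8.50 to 24.4 in the other late libraries and 6.34 to 10.6 early (2.00 ± 0.64), and Trem2, a lipid receptor of the same cells, was 30.4 in that library and at most 4.80 elsewhere (1.73 ± 0.73). The whole list of 16 ran from 1155 to 3285 normalised CPM without separating the arms and had Lyz2 as its most abundant gene. Median log2 fold changes were 0.28 for macrophages, 0.79 for neutrophils, 0.24 for skeletal muscle, 0.19 for endothelium, 0.24 for smooth muscle and pericytes, 0.27 for fibroblast progenitors, 0.18 for Schwann cells and 0.90 for red blood cells. Neutrophil genes, led by S100a9, peaked at 798 in 18 h replicate 1, against 351 in 0 h replicate 3 and 304 in 2 h replicate 3. Of the trace lists, 1 to 3 genes each were tested for cerebellum, liver, stomach, pancreas and sebaceous glands, and their medians were 2.25, 0.32, 1.55, -0.11 and 0.63. The 1 gene tested for cerebellum was Syt1, a synaptic vesicle protein, at 45.1 in 22 h replicate 3 and at most 4.16 elsewhere (2.25 ± 0.97).

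Within the early arm, the adipocyte sum was 63040 and 45802 in 0 h replicates 1 and 2, and 3913 in 0 h replicate 3, inside the range of 2 h (2784 to 5559). Between 2 h and 0 h edgeR called 0 of 16159 genes (0%), with 1423 at an unadjusted p under 0.05 (8.81%), 186 of them higher (1.15%) and 1237 lower at 2 h (7.66%). DESeq2 called 3 genes higher and 195 lower. The 1423 genes were 341 without 0 h replicate 1 and 3554 without 0 h replicate 3. Of 15 adipocyte identity genes 12 were lower at an unadjusted p under 0.05, with a median log2 fold change of -3.21, and of 18 genes of fatty acid synthesis 16 were, with a median of -2.78. The 12 became 4 without 0 h replicate 1 or 2 h replicate 3 and 5 without 2 h replicate 2. Angptl8 had the smallest p of all genes in edgeR (0.000159, log2 fold change -6.32 ± 1.07, adjusted p 0.551 in edgeR and 4.9e-08 in DESeq2).

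Each mouse also gave perigonadal white fat (pgWAT), which allowed the change in psWAT to be tested against that in pgWAT within 11 animals. The 5 late pgWAT libraries were all on lane 6, and of the 6 early ones 5 were on lane 5 and 1 on lane 7, so lane and fasting time cannot be separated in pgWAT or in this comparison. In edgeR 1 of 17641 genes (0.00567%) differed, with 1029 at an unadjusted p under 0.05 (5.83%), 723 of them in the higher direction (4.1%) and 306 in the lower (1.73%), and DESeq2 called 9. The gene was Ahsg, which encodes the liver plasma protein fetuin-A (log2 difference -8.30 ± 0.80, adjusted p 0.00537 in edgeR). In psWAT it was at most 0.996 CPM, and in pgWAT it was 364 CPM in 18 h replicate 2, 24.9 in 22 h replicate 1 and at most 2.92 in the other 9 libraries. Without the animal of 18 h replicate 2, edgeR called 0 genes.

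Within pgWAT of the same animals edgeR called 0 of 15998 genes between late (lane 6) and early (lanes 5 and 7), 3042 (19%) having an unadjusted p under 0.05 and 1897 of these being lower (11.9%). There 11 of 18 genes of fatty acid synthesis were lower at an unadjusted p under 0.05, with a median of -0.77, beside 1 of 18 and -0.72 in psWAT, where 1.58% of all genes were lower at that threshold. The adipocyte identity sum of all pgWAT libraries ran from 12590 to 118821 CPM and their B lymphocyte sum from 90.7 to 1172, whereas the 18 psWAT libraries ran from 1394 to 68927 and from 558 to 11233. The difference between the depots was 0.28 ± 0.75 for Acly and 0.15 ± 1.27 for Angptl8 in log2 units, neither past the threshold.

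Against interscapular brown fat (iBAT) of 10 animals, edgeR called 0 of 17059 genes (0%) for a different change, with 1417 at an unadjusted p under 0.05 (8.31%), 863 higher (5.06%) and 554 lower (3.25%), and DESeq2 called 8. The iBAT libraries were on lanes 4, 5 and 8 early and on lanes 2, 3, 5 and 8 late. In iBAT alone edgeR called 0 of 13967 genes, 2832 (20.3%) having an unadjusted p under 0.05 and 1469 of these being lower (10.5%). There 11 of 18 genes of fatty acid synthesis and 13 of 21 of cholesterol synthesis were lower at an unadjusted p under 0.05, with medians of -0.69 and -0.83. Its B lymphocyte sum was between 29.1 and 98.9 CPM. The log2 difference of the changes was 0.61 ± 0.39 for Sqle and 1.90 ± 0.48 for Postn, with an adjusted p of 0.656 and 0.600 in edgeR. Postn was 1 of the 8 genes that DESeq2 called (log2 difference 1.86, adjusted p 0.0481).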

How the data were processed

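The authors made TruSeq stranded mRNA libraries, aligned the reads to GRCm38 with TopHat2 2.1.1 and counted them with HTSeq 0.9.1, by the submitters' processing notes. The deposited values are whole-number counts for 53686 gene symbols in the 162 libraries of the series, with 2 repeated symbols. From these counts, edgeR 4.0.16 (R 4.3.3) gave TMM factors and robust quasi-likelihood tests with Benjamini-Hochberg adjustment, with genes called where the adjusted p is under 0.05 and the log2 fold change exceeds 1 in size. Genes were kept at 1.38 CPM, equal to 10 counts in the median library, in at least 3 of the 11 libraries, which left 16159. SE is the absolute log2 fold change divided by the square root of F. The changes in 2 depots were compared with the animal as a block, since each mouse gave every depot. Libraries of the same fasting time and replicate number were taken as those of 1 animal.

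DESeq2 1.42.0, limma voom 3.58.1, other scalings, filters, covariates and sample sets were alternatives. The code was tested on simulated data. The 44 lists and the libraries were chosen with earlier results of these data known. The rule fixed for naming genes took Lep, Adipoq and the 12 with the smallest p in each direction. It also took the 2 members with the smallest p in each list and the most abundant member of each cell list. Of these list members edgeR called none, whereas DESeq2 called Krt14, Krt18, Wfdc18 and Dsp. Of the list members so taken, the text gives mainly those with an unadjusted p under 0.05, and leaves many others out. Other genes named were chosen after their values were seen. Positions are from the Gencode M21 annotation.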

Additional observations from a re-analysis of the deposited data

Results flagged for a closer look

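In 5 of 92 sets of libraries examined, 1 library lay far from the others of its arm by Dixon's gap ratio, and chance flags about 1 in 20 groups. All 5 were sets of summed list levels. Cholesterol synthesis was far higher in 22 h replicate 3 than in the other late libraries (ratio 0.86). Among the early libraries, 2 h replicate 2 was far lower in ER chaperones (0.63) and far higher in smooth muscle and pericyte genes (0.72). Genes of cerebellum and neurons were far higher in 0 h replicate 2 than in the other early libraries (0.77) and in 22 h replicate 3 than in the other late ones (0.76).

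A difference between depots was flagged for Ahsg, whose change in psWAT minus that in pgWAT was -8.30 log2 units by edgeR's interaction test. Its level in pgWAT was 364 CPM in 18 h replicate 2 and 24.9 in 22 h replicate 1. All late pgWAT libraries were on lane 6 and no early one was, so lane and fasting time cannot be separated there.

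In psWAT of 12 h replicate 3, a library in neither arm, genes of cerebellum and neurons summed to 7845 CPM (7850 rounded), against 0.872 to 229 CPM in the other 17 psWAT libraries. What brought these transcripts into the library was not tested.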

How the results depend on the processing

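edgeR called 0 genes between late and early psWAT under every alternative, and DESeq2 called 12 higher and 0 lower, 8 of them genes named above (Krt14, Prom1, Tead2, Krt18, Wwc1, Ptn, Wfdc18 and Dsp). The number of genes at an unadjusted p under 0.05, 587, moved to 2429 in limma voom, 1294 without the filter, 243 on lane 5 only, 938 with 22 h replicate 2, 286 against 0 h alone, 1044 against 2 h alone and 2315 for 22 h alone. Among alternatives chosen after seeing the data it was 965 with the adipocyte sum and 953 with the B lymphocyte sum as covariates, 1.4e+02 when scaled to the adipocyte genes (50 higher and 89 lower) and 318 without the 2 libraries richest in muscle (2 h replicate 2 and 18 h replicate 3). Leaving out 1 library at a time gave 335 to 1153, and the number moved by more than 1.5 times without 2 h replicate 3, 18 h replicate 1 or 18 h replicate 3. The causes of these moves were not tested.

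The 8 simple epithelium members higher at an unadjusted p under 0.05 became 4 in limma voom, 3 on lane 5 only, 4 against 2 h alone, 0 for 22 h alone, 5 when scaled to the adipocyte genes, 0 without both epithelium-rich libraries (18 h replicates 2 and 3) and 3 without the 2 richest in muscle (both chosen after seeing the data), and 5 to 9 with 1 library left out at a time. The 0 genes called by edgeR between 2 h and 0 h became 198 in DESeq2. The 1 called between psWAT and pgWAT became 9 in DESeq2, 0 without the animal block and 0 to 2 with 1 animal left out (0 without animal 14, 2 without animal 18), and the 0 between psWAT and iBAT became 8 in DESeq2. At an unadjusted p under 0.05, leaving out 1 library moved the 1423 genes of 2 h against 0 h to between 341 and 3554, by more than 1.5 times for each of the 6 (0 h and 2 h replicates 1, 2 and 3). Leaving out 1 animal moved the 1029 of psWAT against pgWAT to between 629 (animal 6) and 1453, and the 1417 of psWAT against iBAT to between 702 (animal 18) and 1967, with 895 without animal 6.

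Some log2 fold changes turned sign, for causes that were not tested. Lep was 1.65 in limma voom, 2.69 against 2 h alone and -1.30 to 0.14 with 1 library left out. Adipoq was 2.11 in limma voom, 0.12 on lane 5 only, 2.96 against 2 h alone, 0.16 for 18 h alone, 0.20 with the adipocyte covariate, 0.22 when scaled to the adipocyte genes and -0.39 to 0.82 with 1 library left out. Adipoq is itself among those adipocyte genes, so its values with that covariate and that scaling are not independent of it. Against 2 h alone Acly was 0.13, Scd2 0.10, Angptl8 2.04, Ppp1r3b 2.71 and Ucp1 5.95. Scd2 was 0.01 when scaled to the adipocyte genes, Ucp1 2.57 in limma voom, and for 22 h alone Lcn2 was -2.63 and Gpnmb -0.03. For 18 h alone Syt1 was -0.08. The other genes whose late-against-early log2 fold change is printed kept their direction in each alternative that gave them a value. Of 32 alternatives, 8 gave none for Krt14, Wwc1, Wfdc18, Dsp, Clic6 and Tmem125, 5 for Ckmt1, 3 for Prom1, Krt18 and Cnn1, and 1 for AC154767.3, Acot1 and Atp6v0d2. Genes given by level only were not compared.

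With the replicate number as a block, 349 genes had an unadjusted p under 0.05, 0 were called and Adipoq was 0.26, and between 2 h and 0 h the number was 866. The numbers do not pair the libraries, since different mice were taken at each fasting time. Correlations of 15 same-numbered pairs ran from -0.755 to 0.561, 4 of them over 0.1, and 1 of 11 libraries correlated best with its own number. They were taken after removing the mean of each fasting time. That makes the 2 libraries of 22 h mirror images of each other, so the correlations are a description only.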

Other observations

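The psWAT libraries of 8 h and 12 h and the excluded 22 h replicate 2 varied in tissue content as the others did. Adipocyte identity genes summed to 68927, 29364 and 54418 CPM at 8 h, 9820, 4012 and 11705 at 12 h, and 11267 in 22 h replicate 2. B lymphocyte genes summed to 558, 7088 and 2985 at 8 h, 7851, 7912 and 752 at 12 h, and 7194 in 22 h replicate 2. Skeletal muscle genes were at 8395, 39873 and 449 at 8 h. Simple epithelium genes were at 105.3 CPM in 8 h replicate 3, and between 11.04 and 34.8 in the other 6 of these libraries. Pancreas genes summed to 619 CPM in 12 h replicate 1 and to between 1.36 and 17.9 in the other 17 psWAT libraries.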
